A study of Rattus norvegicus with 52 samples.

Results

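The G2 and M phase genes examined here are 49 genes whose transcripts peak as a cell passes from the end of DNA replication into division. They were chosen by gene symbol, and 45 of the 49 have a row among the 17356 genes of each count file; Cenpe, Ckap2l, Ckap5 and Anln have none. Expression was measured by RNA-seq in 48 libraries of FACS-purified rat mammary epithelial cells. In the first part of the study, 36 libraries came from female ACI rats, a strain prone to estrogen-induced mammary tumours. The rats were Cdkn1b+/+ or Cdkn1b-/-, the latter homozygous for a germline CRISPR-Cas9 deletion in the gene for p27, which was made in Sprague Dawley zygotes and crossed into ACI. The study's methods name rats of an early and of a later backcross generation as the source of sorted cells, and the labels give ACI for every library without the generation. The deletion is carried by every cell of the animal, not by the mammary epithelium alone. At 9 weeks, basal cells (Cd24+ Cd29HIGH), mature luminal cells and luminal progenitors (Cd24+ Cd29LOW) were sorted, the progenitors once by peanut lectin (PNA+) and once by CD49b (CD49b+), with 2 libraries for each population and genotype. At 4 weeks there were 3 Cdkn1b+/+ basal, 3 Cdkn1b+/+ luminal, 2 Cdkn1b-/- basal and 3 Cdkn1b-/- luminal libraries. At 6 weeks there were 3 Cdkn1b+/+ basal libraries and 2 in each of the other groups. The remaining 12 libraries were basal and luminal cells of control or E2 (estradiol)-treated female ACI rats (2 libraries a group) and BN rats (1 library a group, each a pool of 2 animals), for which the labels give no age.

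Cyclin B and cyclin A bind Cdk1, and the active kinase drives entry into mitosis. Polo-like and Aurora kinases then build the spindle, the spindle checkpoint holds division until every kinetochore is attached, and the anaphase-promoting complex destroys cyclin B so that the cell can leave mitosis. p27, the product of Cdkn1b, is a CDK inhibitor best known for restraining cyclin E-Cdk2 before DNA replication. Transcripts of most of these genes are scarce in resting cells, so in bulk RNA a larger share of dividing cells and more transcript in each cell cannot be told apart.

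Gene counts ranged from 21545344 to 33859550 per library at 9 weeks, from 14674040 to 23045345 at 4 weeks, from 7985619 to 16390460 at 6 weeks and from 13659389 to 25280421 in the E2 experiment. Levels below are normalised CPM, which are counts scaled to a common gene total (CPM) with TMM scaling within the 9-week, the 4- and 6-week and the E2 libraries. Levels of the targeted gene were set beside the genotype labels. The study describes short deletions within an exon, so the mutant transcript can still be counted. The level alone therefore does not give the genotype. Normalised CPM of Cdkn1b were 1.8 to 4.61 in the 8 Cdkn1b-/- and 6.15 to 15.7 in the 8 Cdkn1b+/+ libraries of 9-week rats. They overlapped at 4 weeks, where the 5 Cdkn1b-/- libraries held 5.19 to 18.8 and the 6 Cdkn1b+/+ libraries 14.3 to 41.4. At 6 weeks the library labelled Cdkn1b-/- luminal replicate 2 held 36.7, above 4 of the 5 Cdkn1b+/+ libraries, and the library labelled Cdkn1b+/+ basal replicate 3 held 3.48, below every Cdkn1b-/- library. The first of these also stood apart in adipocyte markers, with 8628 CPM summed over 6 genes. The other 8 libraries of that age held at most 118.6. In the first, fibroblast and endothelial markers also summed to 3813 and 2053 CPM, against at most 108.8 and 369.8 in the other 6-week luminal libraries. The second stood apart in pan-leukocyte markers (211.6 CPM over 4 genes). Basal markers summed to 7398 to 39930 CPM in the 14 basal libraries of the genotype experiments and to 141.4 to 3379 in the 22 others. In the E2 experiment the library labelled E2 basal replicate 1 of ACI held 2990 CPM of basal and 71.8 CPM of luminal markers, and 28 of the 45 members had no count in it.

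Promoter windows are shown first, because genes of this phase are known for the promoter elements they share. RefSeq promoter entries (build GRCr8, from 250 bases before to 50 bases after the annotated start) matched 40 of the 45 members by symbol, and Aurkb, Ccna2, Tpx2, Ube2c and Wee1 had none. CCAAT boxes and the element called CHR are the textbook elements of genes switched on in G2 and M. The letters TTTGAA, its variant TTCGAA and CCAAT were searched on both strands. TTTGAA was found in 27 of the 40 member windows (67.5%) and in 18.3% of all 33469 promoter windows. TTCGAA was found in 5 of 40 (12.5%) and in 1.7% of all. CCAAT was found in 32 of 40 (80.0%) against 37.5% of all, and at 2 or more places in 23 of 40 (57.5%) against 11.2%. Windows with CCAAT and either of the other words made up 26 of 40 (65.0%) and 8.0% of all.

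The 150 bases before the start are printed 5′ to 3′ on the gene's strand, in capitals where one of these words, on either strand, was found. The first 4 genes are those called higher in Cdkn1b-/- luminal progenitors, and the others encode Cdk1, its 2 B cyclins and the activator of the anaphase-promoting complex.
Cenpa, chr6:31431553-31431702, minus strand: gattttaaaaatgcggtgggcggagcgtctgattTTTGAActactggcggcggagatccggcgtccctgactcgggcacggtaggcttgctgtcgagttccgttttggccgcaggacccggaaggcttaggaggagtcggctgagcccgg
Nusap1, chr3:127057145-127057294, plus strand: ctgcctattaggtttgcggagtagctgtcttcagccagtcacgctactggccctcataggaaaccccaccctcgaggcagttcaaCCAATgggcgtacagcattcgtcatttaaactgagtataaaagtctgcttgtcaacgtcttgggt
Cdca3, chr4:159321053-159321202, plus strand: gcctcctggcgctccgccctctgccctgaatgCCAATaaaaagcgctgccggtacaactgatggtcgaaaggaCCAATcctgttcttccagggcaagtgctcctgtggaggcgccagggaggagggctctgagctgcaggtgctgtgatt
Plk1, chr1:186147508-186147657, plus strand: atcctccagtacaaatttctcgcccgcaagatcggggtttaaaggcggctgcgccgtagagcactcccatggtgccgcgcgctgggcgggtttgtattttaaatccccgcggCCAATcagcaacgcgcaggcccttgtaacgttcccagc
Cdk1, chr20:19265143-19265292, plus strand: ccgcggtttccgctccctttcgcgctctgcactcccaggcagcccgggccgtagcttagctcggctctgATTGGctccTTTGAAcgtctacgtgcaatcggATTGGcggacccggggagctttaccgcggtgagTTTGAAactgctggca
Ccnb1, chr2:33655226-33655375, minus strand: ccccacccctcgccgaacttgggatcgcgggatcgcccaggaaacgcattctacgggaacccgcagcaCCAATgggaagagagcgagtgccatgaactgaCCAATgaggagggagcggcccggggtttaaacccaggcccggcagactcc
Ccnb2, chr8:79981659-79981808, minus strand: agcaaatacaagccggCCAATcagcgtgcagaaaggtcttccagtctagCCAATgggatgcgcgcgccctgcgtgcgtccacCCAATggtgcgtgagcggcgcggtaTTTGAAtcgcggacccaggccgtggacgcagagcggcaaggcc
Cdc20, chr5:137255800-137255949, minus strand: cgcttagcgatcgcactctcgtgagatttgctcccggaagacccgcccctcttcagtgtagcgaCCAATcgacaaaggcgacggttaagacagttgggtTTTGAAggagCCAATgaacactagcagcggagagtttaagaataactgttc
In the printed bases Ccnb2 holds 3 CCAAT boxes before 1 TTTGAA, whose first base lies 43 bases before the start, and Cdk1 holds 2 CCAAT and 2 TTTGAA. Further upstream in their windows lie another TTTGAA of Ccnb2, 214 bases before the start, and another CCAAT of Cdk1, 210 bases before it. Plk1 and Nusap1 each hold 1 CCAAT in these bases, and their TTTGAA lies just past the start, with its first base at positions 7 and 10 of the transcript. Such a match describes the letters of a window and was not read as a bound site.

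The level of the members was summarised for each library as the mean of log2(CPM) over the 45 genes, with a prior count of 1 so that genes at 0 enter. Levels were scaled separately for each experiment, so ages are set side by side only roughly. At 4 weeks the 11 libraries lay between 2.99 and 4.07, and at 9 weeks the 16 libraries lay between 1.09 and 3.43. Within every 9-week luminal population both Cdkn1b-/- libraries lay above both Cdkn1b+/+ libraries. The values were 2.54 and 3.29 against 2.01 and 1.16 in PNA+ cells, 2.57 and 3.03 against 2.27 and 1.26 in CD49b+ cells, and 1.97 and 2.70 against 1.83 and 1.09 in mature luminal cells. In basal cells they overlapped, with 2.71 and 2.78 against 3.43 and 1.43. Same-numbered libraries of a genotype moved together: library 2 was the higher of the Cdkn1b-/- pair and library 1 the higher of the Cdkn1b+/+ pair in all 4 populations.

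**Figure D1:**
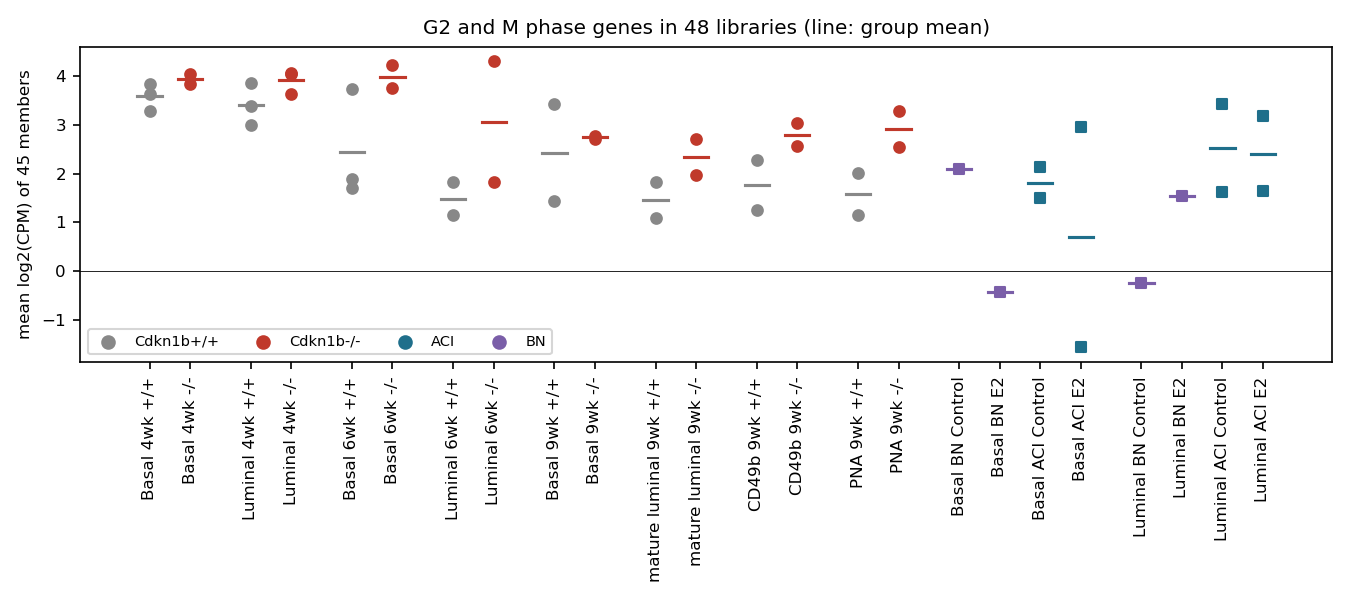
Mean log2(CPM) of the 45 members in each of the 48 libraries, with one point per library and a line at each group mean; grey is Cdkn1b+/+, red Cdkn1b-/-, blue ACI and purple BN. The 4-week libraries sit between 2.99 and 4.07, the 9-week luminal libraries of the 2 genotypes do not overlap within a population, and the E2 experiment spreads from -1.56 to 3.42.

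In luminal progenitors of 9-week rats all 45 members had a higher fitted level in Cdkn1b-/- than in Cdkn1b+/+ rats. The median of their log2 fold changes was 1.23, against 0.03 over all 12809 genes tested. Genes above 0 made up 52.8% of all genes. By the quasi-likelihood test of edgeR, adjusted over all genes by Benjamini-Hochberg, 4 members rose (Cenpa, Nusap1, Cdca3 and Plk1) and none fell, where 2.12% of all genes were called higher and 1.29% lower. These 4 libraries a genotype carry only 2 replicate numbers, and with the PNA+ and CD49b+ counts of a number summed 0 members were called (0.0392% of all genes). At an unadjusted p under 0.05 there were 27 members higher and 0 lower (10.4% and 7.92% of all genes), and the 4 Cdkn1b-/- libraries lay wholly above the 4 Cdkn1b+/+ libraries for 21 members and below them for 0 (7.43% and 5.74% of all genes). DESeq2 called 15 members higher and 0 lower, against 5.06% and 3.53% of all genes. On plain CPM the median log2 ratio of all genes in this comparison was -0.26, and after TMM scaling it was 0.03. Over all comparisons of groups it ran from -0.26 to 0.59 on plain CPM, so differences are given on the scaled level.

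Cenpa encodes the histone H3 variant that marks the centromere. Its normalised CPM were 3.46 and 3.18 in the PNA+ and 2.47 and 2.995 in the CD49b+ libraries of Cdkn1b-/- rats, and 0.499, 0.439, 0.778 and 0.551 in the same order in Cdkn1b+/+ rats. Every Cdkn1b-/- library lay far above every Cdkn1b+/+ library, and the log2 fold change was 2.41 ± 0.40 (SE, n = 4 libraries a group, adjusted p = 0.007692, edgeR). With counts summed to 2 samples a genotype its adjusted p was 0.423. Nusap1, which bundles spindle microtubules, held 4.30, 6.71, 4.41 and 5.92 CPM against 1.43, 1.19, 1.93 and 1.27. Its log2 fold change was 1.87 ± 0.39 (adjusted p = 0.02049). Cdca3, a trigger of mitotic entry that promotes the destruction of Wee1, held 8.26, 13.8, 6.37 and 9.12 CPM against 2.46, 1.03, 2.15 and 0.986, a log2 fold change of 2.502 ± 0.57 (adjusted p = 0.03022). Plk1, the kinase of mitotic entry and spindle assembly, held 2.75, 3.63, 1.87 and 2.93 CPM against 1.03, 0.345, 0.963 and 0.725. Its log2 fold change was 1.86 ± 0.43 (adjusted p = 0.03201), and the groups of none of these 4 genes overlapped.

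**Figure D2:**
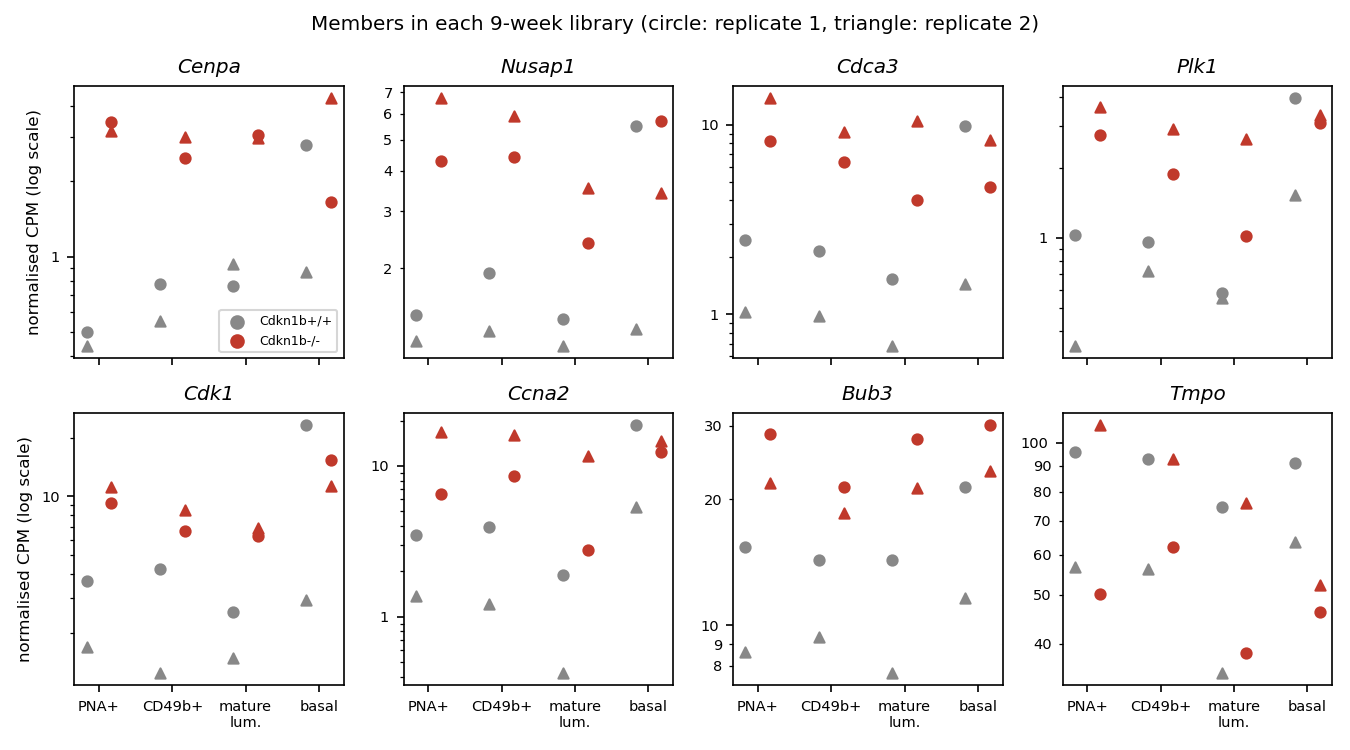
Normalised CPM (log scale) of 8 members in every 9-week library by population, with Cdkn1b+/+ in grey and Cdkn1b-/- in red, circles for replicate 1 and triangles for replicate 2. Cenpa, Nusap1, Cdca3 and Plk1 separate the genotypes in PNA+ and CD49b+ cells, Cdk1, Ccna2 and Bub3 separate them with higher adjusted p, and Tmpo does not.

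Among Cdk1, its cyclins and its regulators, 6 of 9 members were higher at an unadjusted p under 0.05 and 1 of 9 (Cdca3) passed the adjusted test. Cdk1 itself held 9.28, 11.1, 6.61 and 8.49 CPM in PNA+ and CD49b+ cells of Cdkn1b-/- rats and 3.69, 1.69, 4.22 and 1.25 in those of Cdkn1b+/+ rats (adjusted p = 0.09718, edgeR). Ccna2 (cyclin A2) held 6.48, 16.7, 8.54 and 15.9 against 3.46, 1.38, 3.93 and 1.22 (adjusted p = 0.06075). For Ccnb1 (cyclin B1) the Cdkn1b-/- libraries spanned 5.61 to 8.63 CPM and the Cdkn1b+/+ libraries 1.13 to 3.37, with an adjusted p of 0.09042. For Ccnb2 (cyclin B2) the spans were 2.44 to 3.46 and 0.627 to 1.89, with an adjusted p of 0.1686. The groups did not overlap for any of these 4 genes, but none passed the adjusted test. Wee1, the kinase that holds Cdk1 inactive, overlapped between the genotypes, at 153 ± 31.6 CPM against 126.5 ± 38.4 (SD, n = 4 each).

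The mitotic kinases and checkpoint genes gave 4 of 7 members at an unadjusted p under 0.05, and for 6 of 7 the genotypes did not overlap. Plk1 was the one of these called. Bub1, a checkpoint kinase, spanned 4.75 to 11.7 CPM in Cdkn1b-/- and 1.57 to 4.33 in Cdkn1b+/+ cells (log2 fold change 1.62 ± 0.47, adjusted p = 0.08375, edgeR). Nek2, a kinase of centrosome separation, spanned 2.04 to 3.28 and 0.376 to 1.52. Bub3, a checkpoint adaptor present in most cells, was the more moderate case, with 28.7, 21.9, 21.5 and 18.5 CPM against 15.4, 8.62, 14.3 and 9.36 (0.93 ± 0.28, adjusted p = 0.08894). Both partners of the anaphase-promoting complex, its activator Cdc20 and the ubiquitin-conjugating enzyme Ube2c, were separated between genotypes without passing the adjusted test, and Cdc20 spanned 7.21 to 14.0 CPM against 1.94 to 6.45. In the chromosomal passenger complex, which corrects faulty attachments, Birc5 (survivin) stood at 2.69 ± 0.57 against 0.863 ± 0.382 CPM and Aurkb at 5.35 ± 1.45 against 1.91 ± 1.12 (SD, n = 4 each), with adjusted p of 0.1043 and 0.2057.

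The 5 centromere and kinetochore genes all had an unadjusted p under 0.05 (median log2 fold change 1.57), and Cenpa alone passed the adjusted test. Of 12 spindle motors and microtubule proteins, 6 had an unadjusted p under 0.05 and Nusap1 alone passed. The range within that group was wide, from 0.13 for Kif2c to 2.12 for Psrc1. Ect2, the cytokinesis exchange factor and the one such member with a row, was separated between the genotypes at 6.87 ± 2.53 against 2.18 ± 1.14 CPM (SD, n = 4 each). The 6 genes of chromosome structure and the nuclear envelope had the lowest median log2 fold change of the role groups, 0.17, and none separated the genotypes. Top2a, which untangles sister chromatids, was at 1.16 ± 0.51 (adjusted p = 0.2444, edgeR). Mki67, the gene for the Ki67 proliferation antigen, spanned 5.37 to 11.04 CPM in Cdkn1b-/- and 3.26 to 10.0 in Cdkn1b+/+ cells, and its log2 fold change was 0.47 ± 0.54 (adjusted p = 0.693). The nuclear envelope genes Lbr and Tmpo, which most cells express, stood at 0.17 ± 0.17 and 0.06 ± 0.32.

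**Figure D3:**
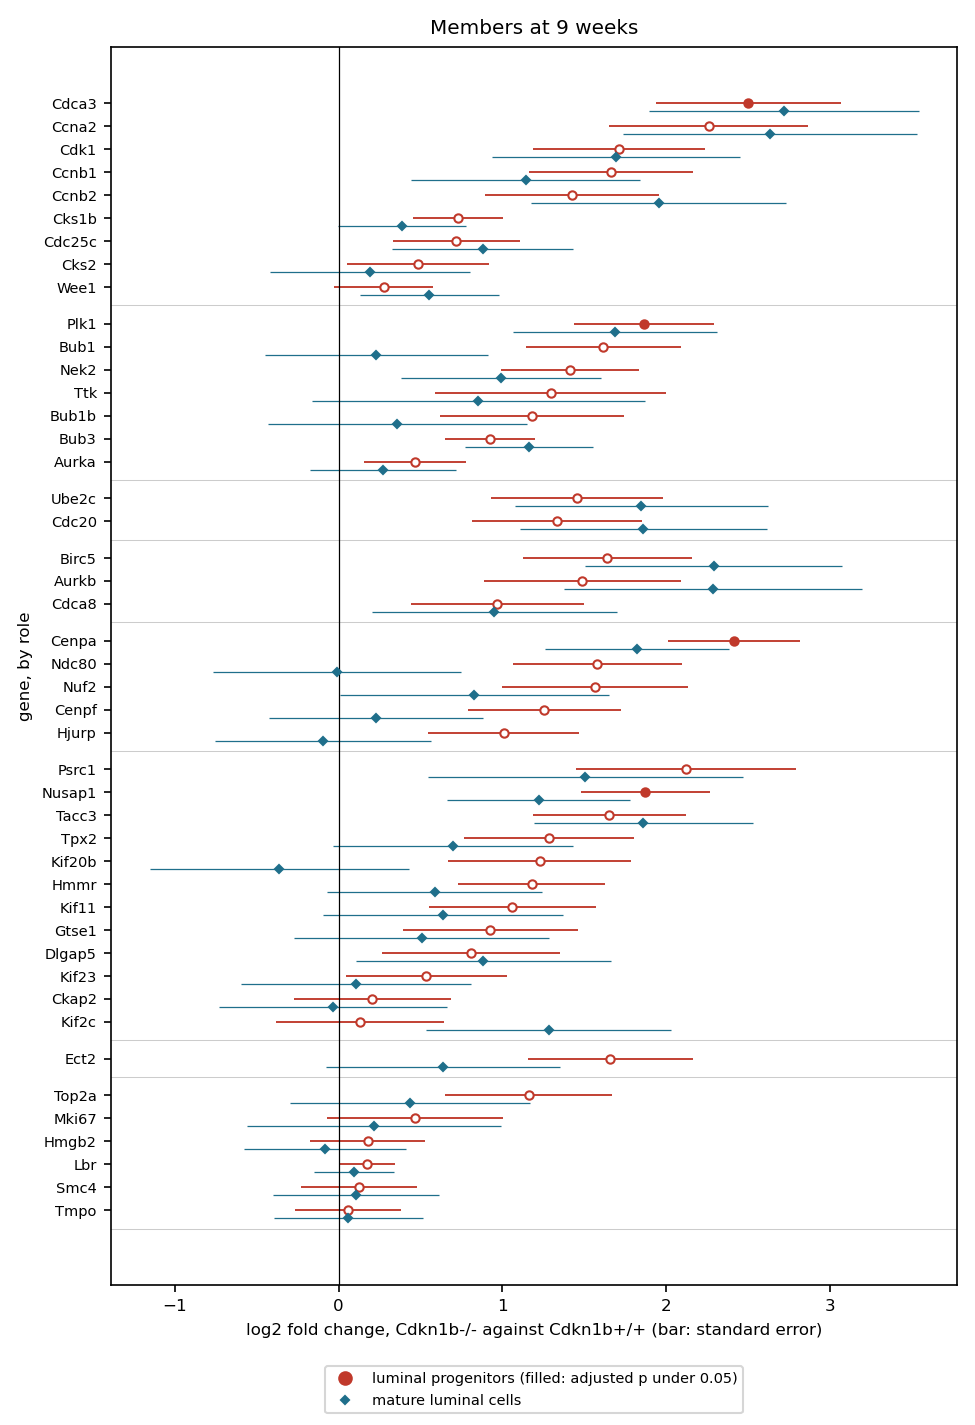
Log2 fold change of each member, Cdkn1b-/- against Cdkn1b+/+, in luminal progenitors (red circles, filled where the adjusted p is under 0.05) and mature luminal cells (blue diamonds), ordered by role, with bars for the standard error. All 45 red circles lie above 0, from 0.06 for Tmpo to 2.502 for Cdca3, and the chromosome structure and nuclear envelope genes at the foot lie nearest 0.

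Further lists of cell cycle genes were read from the same fit, in which 52.8% of all genes lay above 0 and 2.12% were called higher and 1.29% lower. Differences between lists were not tested. Of 39 further G2 and M genes tested, 38 lay above 0 (median 0.81) and 5 rose, namely Troap (log2 fold change 2.42), Cit, the citron kinase of cytokinesis (2.30), Cdkn3 (1.88), Pttg1, which encodes securin (1.60), and Pkmyt1, a kinase that inhibits Cdk1 (0.93). Of 38 S phase genes tested, 30 lay above 0 with a median of 0.28 and 0 were called by edgeR, with 4 higher and 2 lower at an unadjusted p under 0.05 and 2 higher and 1 lower by DESeq2. None of the 7 G1 cyclins and kinases lay above 0, and 0 of them were called by edgeR, with 3 lower at an unadjusted p under 0.05 and 1 lower by DESeq2. Of 6 CDK inhibitors tested, only Cdkn1b fell, by 1.95 on the log2 scale (adjusted p = 0.002082, edgeR).

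These calls rest on few libraries, and the labels do not say that the 9-week libraries of a group came from separate animals, so the p-values measure the spread between libraries. Same-numbered PNA+ and CD49b+ libraries deviated together, and with their counts summed to 2 samples a genotype 0 of 45 members were called, with 10 higher at an unadjusted p under 0.05 (3.59% of all genes). The median was 1.25 and the log2 fold change of Cenpa 2.38. PNA+ or CD49b+ cells taken alone also gave 0 called, with 15 and 6 higher at an unadjusted p under 0.05 (4.84% and 2.68% of all genes). Leaving out 1 of the 8 libraries left 1 to 5 members called. Cenpa passed in each of these 8 fits, and it was the only one to pass without PNA+ library 2 of Cdkn1b-/- rats, CD49b+ library 2 of Cdkn1b+/+ rats or either PNA+ library of Cdkn1b+/+ rats. Without PNA+ library 1 of Cdkn1b-/- rats or CD49b+ library 1 of Cdkn1b+/+ rats, Cenpa and Nusap1 passed. Milk genes and some markers of other cells differed between these libraries. The 6 milk genes summed to 91900 to 200100 CPM in Cdkn1b-/- and 18250 to 55050 in Cdkn1b+/+ progenitors, the 8 hormone-sensing luminal markers to 200.1 to 304.6 and 327.1 to 532.3, and the 9 fibroblast markers to 204.1 to 1053 and 568.6 to 1449, with Col1a2 at 0 in all 8 libraries. The 11 myeloid markers summed to 459.0 to 1664 (median 1078) in Cdkn1b-/- and 245.6 to 677.7 (median 461.9) in Cdkn1b+/+ progenitors, though 4 of the 11 had a log2 fold change above 0 and 0 were called by edgeR or DESeq2 (1 was higher and 1 lower at an unadjusted p under 0.05). The 5 progenitor markers with a row summed to 615.5 to 2324 and 402.8 to 1020 CPM, the endothelial ones to 427.7 to 1774 and 721.8 to 1504, and the 4 pan-leukocyte markers to 7.96 to 14.0 and 4.85 to 27.8. Cd14 is on both the progenitor and the myeloid list, so those sums share a gene and the myeloid sum is not one of other cells alone. CD49b+ library 2 of Cdkn1b-/- rats stood apart in basal markers, at 3379 CPM against at most 1166 in the other 7 progenitor libraries, and without it 5 members were called (3.88% of all genes called higher). The part of these markers in the result was not tested.

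In mature luminal cells of the same rats 40 of 45 members had a higher fitted level in Cdkn1b-/- rats (53.1% of all genes), and their median log2 fold change was 0.70 against 0.03 for all genes. None was called by edgeR, where 0.101% of all genes were called higher and 0.0312% lower, and 1 was by DESeq2 (0.835% of all genes higher, 0.687% lower). At an unadjusted p under 0.05, 13 were higher and 0 lower (4.82% and 2.33% of all genes), and for 20 of 45 both Cdkn1b-/- libraries lay above both Cdkn1b+/+ libraries (15.7% of all genes), and below them for 0 (13.9%). Cdca3 held 4.04 and 10.5 CPM against 1.53 and 0.681, a log2 fold change of 2.72 ± 0.82 (n = 2 each, adjusted p = 0.3512, edgeR). Cenpa was more even, with 3.06 and 2.98 CPM against 0.764 and 0.936. Bub3 stood at 27.9 and 21.3 against 14.3 and 7.70 CPM. The chromosomal passenger genes had a median of 2.28 here, and those of chromosome structure and the nuclear envelope one of 0.10, again the lowest of the role groups. Without Cdkn1b-/- library 2 the median of the 45 was 0.33, and without Cdkn1b+/+ library 1 it was 1.23.

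In basal cells of 9-week rats 21 of 45 members lay above 0 (50.2% of all genes), with a median of -0.05. By edgeR and by DESeq2 0 were called, and 0 had an unadjusted p under 0.05, where 0.0546% of all genes were called higher and 0% lower, DESeq2 called 0.773% and 0.686%, and 5.03% and 4.06% had an unadjusted p under 0.05. Both Cdkn1b-/- libraries lay above both Cdkn1b+/+ libraries for 2 members and below them for 3 (20.1% and 16.9% of all genes). The Cdkn1b+/+ libraries differed widely. Cdk1 held 23.2 and 2.94 CPM in them, on either side of the 15.4 and 11.3 of the Cdkn1b-/- libraries, and Mki67 held 21.4 and 2.83 against 8.50 and 10.5. Ckap2, a spindle protein, had the lowest p, with 2.41 and 2.59 CPM in Cdkn1b-/- against 9.32 and 2.59 in Cdkn1b+/+ cells (log2 fold change -1.25 ± 0.69, adjusted p = 0.6233, edgeR). Bub3 was again higher, at 30.1 and 23.3 against 21.4 and 11.6 CPM. Without Cdkn1b+/+ library 1 the median of the members was 1.35 in place of -0.05, and without library 2 it was -0.60.

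The genotype difference in progenitors was set against that in the other populations in the same fit. It exceeded the basal one for 44 of 45 members (54.3% of all genes), by a median of 1.12 on the log2 scale, and 0 passed the adjusted test by edgeR or DESeq2 while 7 had an unadjusted p under 0.05 (3.46% of all genes larger, 3.77% smaller). Over all genes 0% were called by edgeR, and DESeq2 called 0.347% larger and 0.365% smaller. Bub1 had the largest such difference, 2.49 ± 0.82 (adjusted p = 0.5886, edgeR). That contrast rests on Cdkn1b+/+ basal library 1, without which its median was -0.25, and without library 2 it was 1.83. Against mature luminal cells the progenitor difference was larger for 31 of 45 members (52.2% of all genes), by a median of 0.26, and 0 had an unadjusted p under 0.05 (0.773% of all genes larger, 0.976% smaller), nor was any called by edgeR or DESeq2 (0% of all genes by either). Without mature luminal library 1 of Cdkn1b+/+ rats that median was -0.16, and without library 2 of Cdkn1b-/- rats 0.77. The lowest p belonged to Ndc80, a kinetochore gene, at 1.59 ± 0.92.

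At 6 weeks 37 of 45 members lay above 0 (48.7% of all genes) in luminal cells of Cdkn1b-/- against Cdkn1b+/+ rats, with a median log2 fold change of 1.67, but no gene of the genome was called by edgeR (0%). At an unadjusted p under 0.05, 9 members were higher and 0 lower (10.4% and 6.09% of all genes). Both Cdkn1b-/- libraries lay above both Cdkn1b+/+ libraries for 17 members and below them for 2, where the shares of all genes were 23.1% and 26.6%, and DESeq2 called 10 higher and 0 lower (8.87% and 3.58% of all genes). Nusap1 held 13.9 and 32.4 CPM in the libraries labelled Cdkn1b-/- and 0.670 and 0 in Cdkn1b+/+ (log2 fold change 6.13 ± 2.03, adjusted p = 0.2026, edgeR). Cks1b, a small binding partner of CDKs, held 70.8 and 284.1 against 39.9 and 55.7. Cdk1 did not separate, since it stood at 21.1 in the first and 3.15 in the second library labelled Cdkn1b-/-, and at 2.30 and 5.29 in Cdkn1b+/+. The second of these libraries, whose Cdkn1b level goes against its label, also had 12 of 45 members at 0, against 6 and 8 in the Cdkn1b+/+ libraries and 0 in the other Cdkn1b-/- library. Without it the median was 2.37. The first is replicate 1, whose title may give a younger age than those of the other 3 libraries compared, and the part of age was not tested. Without the first the median was -0.59, with 1 member called higher and 1 lower (6.51% and 11.4% of all genes), so the direction of this comparison depends on 1 library.

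In basal cells of the same age 34 of 45 lay above 0 (52.4% of all genes) with a median of 0.89, and 0 were called by edgeR (0% of all genes). At an unadjusted p under 0.05 there were 2 higher and 1 lower (5.06% and 3.93% of all genes), while DESeq2 called 2 (1.6% higher, 1.49% lower). The 3 libraries labelled Cdkn1b+/+ include replicate 3, whose Cdkn1b level goes against its label. The title of Cdkn1b-/- replicate 1 may give a younger age than those of the other libraries compared, and the part of age was not tested. Both Cdkn1b-/- libraries lay above the 3 libraries labelled Cdkn1b+/+ for 15 members and below them for 2 (23.5% and 17.6%). Nuf2, of the kinetochore complex that grips microtubules, held 30.6 and 17.9 CPM in Cdkn1b-/- and 0.078, 1.10 and 3.20 in Cdkn1b+/+ cells (4.20 ± 1.24, adjusted p = 0.3902, edgeR). Aurkb likewise separated the groups, at 17.9 and 11.3 against 2.75, 0.779 and 0.139. Bub3 ran the other way from 9 weeks, with 78.6 and 57.0 CPM against 181, 134 and, in replicate 3, 258 (-1.38 ± 0.45, adjusted p = 0.467). Cdk1 at 27.4 and 15.2 CPM in Cdkn1b-/- cells exceeded the 0.471 and 3.57 of 2 Cdkn1b+/+ libraries but not the 43.7 of replicate 3. Without that replicate, which was low in Cdkn1b and high in leukocyte markers, the median of the members was 2.18, and without replicate 2 of Cdkn1b+/+ cells it was 0.54.

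At 4 weeks 37 of 45 members lay above 0 in luminal cells (42.3% of all genes) with a median of 0.51, where the median of all genes was -0.10. The titles of Cdkn1b+/+ replicate 1, luminal and basal, may give a younger age than those of the other 4-week libraries. The part of age was not tested. The luminal median of the members was 0.26 without Cdkn1b+/+ luminal replicate 1 and 0.78 without replicate 3. None was called by edgeR (0% of all genes) or DESeq2, but 7 were higher and 0 lower at an unadjusted p under 0.05 (2.14% and 1.46%), and the 3 Cdkn1b-/- libraries lay above the 3 Cdkn1b+/+ libraries for 13 members and below them for 0 (5.77% and 5.64%). Ccnb1 held 23.7, 24.9 and 19.0 CPM against 11.2, 10.1 and 14.9, a log2 fold change of 0.85 ± 0.32 (adjusted p = 0.8541, edgeR). Cenpa held 12.4, 6.70 and 6.22 against 3.71, 3.64 and 3.70. Mki67 overlapped, at 16.3, 6.49 and 20.4 against 4.21, 12.2 and 16.4. In basal cells 35 of 45 lay above 0 (51.6% of all genes) with a median of 0.36, or 0.21 without Cdkn1b+/+ basal replicate 1. None was called by edgeR (0%) or DESeq2 (0.00828% of all genes higher, 0% lower), and 5 were higher and 1 lower at an unadjusted p under 0.05 (1.85% and 0.72%). The groups did not overlap for 6 members higher and 1 lower (3.3% and 6.28%). Ccnb2 held 15.7 and 7.89 CPM against 5.58, 7.04 and 4.85 (1.04 ± 0.40). Wee1 was the lower one, at 30.8 and 42.8 against 45.3, 90.9 and 91.9 CPM (-1.01 ± 0.38, adjusted p = 1.0, edgeR).

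**Figure D4:**
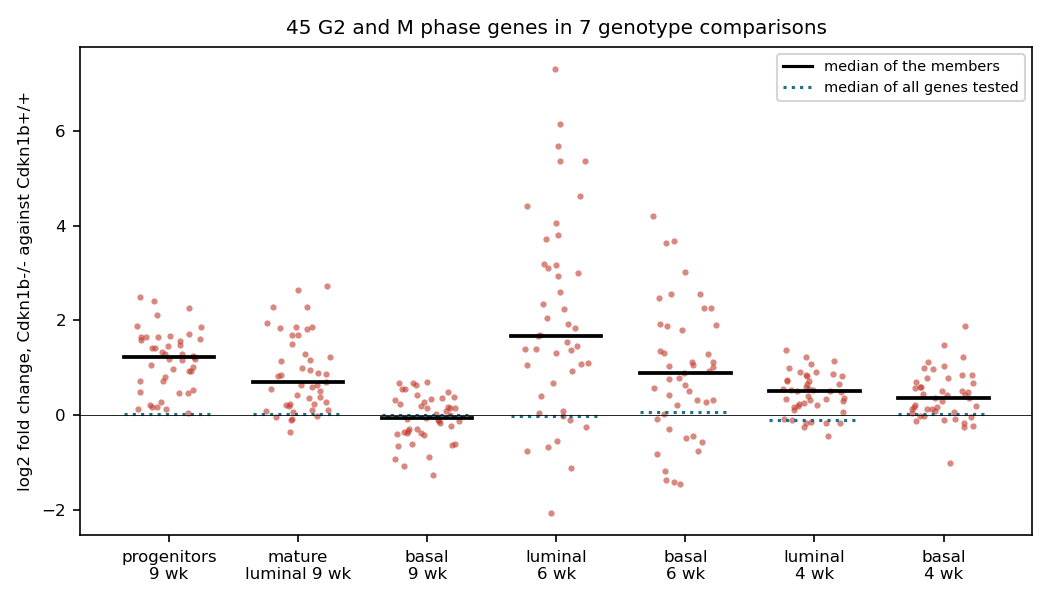
Log2 fold change of each of the 45 members, Cdkn1b-/- against Cdkn1b+/+, in the 7 genotype comparisons, with a black line at the members' median and a dotted blue line at the median of all genes tested. The members' median is 1.23 in progenitors, 0.70 in mature luminal and -0.05 in basal cells at 9 weeks, and the 6-week comparisons have the widest spread.

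The change of the luminal genotype difference with age was tested in a joint fit of the 4- and 6-week libraries. The difference at 6 weeks exceeded that at 4 weeks for 35 of 45 members (50.9% of all genes, median 1.25), and 0 passed the adjusted test by edgeR while DESeq2 called 6, against 0.986% of all genes called higher and 0.223% lower. Unadjusted, 8 members had a larger and 1 a smaller difference (10.1% and 5.45% of all genes), and DESeq2 called 6.49% of all genes larger and 2.25% smaller. Nusap1 gave 5.34 ± 1.53 (adjusted p = 0.0913, edgeR) and Kif11, a motor that pushes spindle poles apart, 5.07 ± 1.63. Without the first Cdkn1b-/- luminal library of 6 weeks the median was -1.30, and 4 members were called larger and 6 smaller, where 6.1% and 14.9% of all genes were. That fit keeps, of the 6-week libraries labelled Cdkn1b-/- luminal, the one whose Cdkn1b level goes against its label. Without the second Cdkn1b+/+ luminal library of 6 weeks 1 member was called larger (1.96% of all genes).

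Among populations of Cdkn1b+/+ rats at 9 weeks the members stood higher in basal than in mature luminal cells, with 40 of 45 above 0 (49.8% of all genes) and a median of 1.24. By edgeR 8 rose and 0 fell, where 12.3% of all genes were called higher and 8.58% lower. DESeq2 called 12 (14.4% higher, 13% lower), 16 were higher at an unadjusted p under 0.05 (18.5% higher, 15.3% lower), and the groups did not overlap for 10, all higher (27.9% higher, 27.4% lower). Birc5 held 5.24 and 1.06 CPM in basal and 0.674 and 0.170 in mature luminal cells (2.90 ± 0.79, adjusted p = 0.01861), Ccna2 18.7 and 5.34 against 1.89 and 0.426 (3.38 ± 0.92, adjusted p = 0.01864), and Plk1 3.95 and 1.53 against 0.584 and 0.553 (2.26 ± 0.63, adjusted p = 0.02043). The other members called were Cdk1, Aurkb, Ube2c, Bub1 and Cdc20. With the replicate number as a block, since same-numbered libraries of a genotype deviated together, 21 were called, all higher, where the share of all genes called higher was 20.7%. The count rests on single libraries. Without basal library 1 it was 0 and the median -0.11, and 9.01% of all genes were called higher. Without basal library 2 it was 23 and the median 1.96 (9.3% of all genes higher), and without mature luminal library 1 or 2 it was 3 or 0 (5.92% and 6.86%).

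Progenitors were set against mature luminal cells in each genotype. In Cdkn1b+/+ rats 33 of 45 members lay above 0 in progenitors (46.4% of all genes, median 0.35) and 0 were called by edgeR and 1 by DESeq2, where 5% of all genes were called higher and 5.97% lower, and DESeq2 called 8.61% and 11.3%. With the replicate block 4 members were called higher and 1 lower, against 15.8% and 18.6% of all genes. The median was 0.01 without mature luminal library 2 and 0.71 without library 1. Unadjusted p was under 0.05 for 14.4% of all genes in each direction, and the groups did not overlap for 2 members, both higher (22.3% higher, 21.1% lower). Smc4, a condensin subunit, held 22.7, 22.2, 30.5 and 26.3 CPM in the progenitors and 12.3 and 8.17 in mature luminal cells, and it was the 1 member at an unadjusted p under 0.05 (1.31 ± 0.46, adjusted p = 0.08018, edgeR). The 10 endothelial markers summed to 721.8 to 1504 CPM in these progenitors and to 226 and 307.7 in the mature luminal cells, and their part in these values was not tested. In Cdkn1b-/- rats 39 of 45 lay above 0 (44.3% of all genes, median 0.44), 0 were called by edgeR (0% of all genes in either direction) and 1 by DESeq2 (2.89% higher, 1.85% lower), 9 did not overlap, all higher (10.8% higher, 16.4% lower), and 3 had an unadjusted p under 0.05 (8.7% of all genes higher, 8.89% lower). Bub1 led them with 4.75, 11.7, 7.01 and 10.2 CPM against 1.94 and 2.84 (1.81 ± 0.63, adjusted p = 0.1727), followed by Smc4 at 12.6, 31.3, 30.2 and 36.8 against 12.1 and 9.96. Without mature luminal library 1 the median was 0.10, and without library 2 it was 1.04. PNA+ against CD49b+ cells gave no called difference, with 20 of 45 above 0 (48.6% of all genes), a median of -0.11 and 0 members called by edgeR (0% of all genes) or DESeq2 or at an unadjusted p under 0.05 (0.179% of all genes higher, 2.87% lower). By DESeq2 0% of all genes were called higher and 0.35% lower, and the groups did not overlap for 0.307% and 0.913% of all genes and for 0 members. The difference of lowest p was that of Smc4, -0.51 ± 0.27. With each same-numbered pair of a genotype as a block, 0 members were called (0% of all genes), and 0 were higher and 1 lower at an unadjusted p under 0.05 (7.45% and 11.8% of all genes), with Smc4 at -0.56 (adjusted p = 0.215, edgeR). Smc4 and Kif23 were lower in PNA+ cells in all 4 pairs, and Cdca3, Gtse1, Hmgb2, Kif2c and Ube2c were higher in all 4, that is 2 and 5 of 45 members against 15.2% and 18.3% of all genes, a count made after the values were seen. The median ran from -0.26 without PNA+ library 2 of Cdkn1b-/- rats to 0.15 without CD49b+ library 1 of Cdkn1b+/+ rats.

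At 4 weeks Cdkn1b+/+ basal cells again exceeded luminal cells for 32 of 45 members (47.8% of all genes), with a median of 0.25. By their titles the basal and luminal libraries of a replicate number came from the same animal, and the values given here are from a fit that did not pair them. By edgeR 2 rose, Ccna2 and Hmmr, and 0 fell (13.8% of all genes called higher, 9.73% lower). DESeq2 called 2 higher and 1 lower (16.6% and 11.9%), 4 were higher and 1 lower at an unadjusted p under 0.05 (18.5% and 15%), and the groups did not overlap for 5 higher and 2 lower (20.4% and 23.7%). Ccna2 held 13.9, 37.5 and 29.6 CPM in basal and 11.6, 9.85 and 12.9 in luminal cells (1.33 ± 0.39, adjusted p = 0.02488). Hmmr, a spindle-associated protein, held 8.79, 14.0 and 14.3 against 4.04, 5.99 and 7.45 (1.17 ± 0.38, adjusted p = 0.04366). Wee1 had the opposite order, at 45.3, 90.9 and 91.9 against 151, 129 and 189 CPM (-0.94 ± 0.34, adjusted p = 0.05976). Both calls remained without basal replicate 1, and 0 members were called without any one of the other 5 libraries. The median was 0.07 without luminal replicate 1 and 0.63 without luminal replicate 3.

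From 4 to 6 weeks in Cdkn1b+/+ luminal cells 37 of 45 members had a lower fitted level, with a median of -1.35, and the 8 above 0 compare with 44.8% of all genes. None was called by edgeR (1.19% of all genes called higher, 1.92% lower), while DESeq2 called 1 higher and 10 lower (4.97% and 8.74%), and 12 were lower and 1 higher at an unadjusted p under 0.05 (12.7% and 7.94%). Both 6-week libraries lay below the 3 libraries of 4 weeks for 27 members and above them for 3 (30.5% and 20.5% of all genes). Without the second 6-week library 3 were called, all lower (2.38% of all genes). Nusap1 held 0.670 and 0 CPM at 6 weeks and 5.14, 6.74 and 10.4 at 4 weeks (-4.49 ± 1.25, adjusted p = 0.05839, edgeR). Cenpf, a kinetochore protein, held 0 and 0.690 against 4.21, 11.6 and 14.0. The 6-week libraries were the shallower, at 9890608 and 13145216 gene counts, below every 4-week library, and the part of depth in these values was not tested.

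In basal cells labelled Cdkn1b+/+ the median was -0.23 with 16 of 45 above 0 (49.8% of all genes). Replicate 3 of 6 weeks, 1 of these libraries, held Cdkn1b at 3.48 CPM against 14.3 to 41.4 in the Cdkn1b+/+ libraries of 4 weeks, which goes against its label, and pan-leukocyte markers at 211.6 CPM. With it included, edgeR called 1 member higher and 2 lower at 6 weeks (4.82% and 5.68% of all genes). DESeq2 called 2 higher and 4 lower (7.94% and 14.1%), 5 were higher and 4 lower at an unadjusted p under 0.05 (13.3% and 14.6%), and the ages did not overlap for 2 higher and 12 lower (15.5% and 21.7%). Bub3 rose, with 181, 134 and 258 CPM at 6 weeks against 53.4, 35.4 and 48.3 (2.06 ± 0.39, adjusted p = 0.004293). Nuf2 fell, from 11.8, 15.6 and 20.3 to 0.078, 1.10 and 3.20 (-3.49 ± 0.80, adjusted p = 0.01216), and so did Aurkb, from 5.45, 10.1 and 6.97 to 2.75, 0.779 and 0.139 (-2.58 ± 0.77, adjusted p = 0.03878). Without that library 1 member was called higher and 6 lower (3.2% and 6.02% of all genes) and the median was -1.61. Without basal replicate 2 of 4 weeks the median was -0.12.

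In the E2 experiment libraries of the same group lay far apart. In luminal cells 28 of 44 members tested lay above 0 with E2 (50.6% of all genes, median 0.46). That median was 0.18 without control replicate 1 and 1.37 without control replicate 2 of ACI. By edgeR 0 were called (0% of all genes) and 1 by DESeq2, and 1 was higher and 1 lower at an unadjusted p under 0.05 (1.79% and 2.28% of all genes). DESeq2 called 0.4% of all genes higher and 0.374% lower, and the groups did not overlap for 3 members higher and 2 lower (4.89% and 6.77%). The lower one was Wee1, with 1780 and 970 CPM in control ACI and 258.2 in control BN cells against 54.3, 130.9 and 126 after E2 (-3.02 ± 0.88, adjusted p = 0.9989, edgeR). Wee1 in the 36 libraries of the Cdkn1b experiments reached at most 412.2 CPM, on levels scaled separately for each experiment. The higher one was Hmmr, which had no count in the 3 control libraries and stood at 10.7, 0.150 and 8.12 CPM after E2. Its mean after E2 was at least 43.7-fold higher than 3 counts a library would give. The 10.7 CPM came from replicate 1 of ACI, with 5318 CPM of fibroblast markers against at most 1273 in the other luminal libraries of the experiment. That library had 12 members at 0 and the BN control 21, and the part of this was not tested. In basal cells 9 of 43 lay above 0 (40.4% of all genes) with a median of -0.97 (all genes -0.18), and 0 were called by edgeR (0%) or DESeq2 or had an unadjusted p under 0.05 (0.39% of all genes higher, 1.21% lower). DESeq2 called 0.177% of all genes higher and 0.478% lower, and the groups did not overlap for 5 members, all lower (3.18% higher, 7.51% lower). Hjurp, the chaperone of Cenpa, held 2.52, 8.59 and 4.28 CPM in control and 0, 0.210 and 0 in E2 cells. Cenpf held 3.78, 55.3 and 20.4 against 2.02, 4.28 and 0. Members at 0 numbered 28 and 22 in E2 basal replicate 1 of ACI and the E2 basal library of BN. They numbered 1 in E2 basal replicate 2 of ACI and 8, 10 and 3 in the control basal libraries. The part of this in the basal values was not tested. The median of basal cells rests on single libraries, and it was -5.07 without E2 replicate 2 of ACI and -0.39 without control replicate 2 of ACI.

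Between strains, ACI luminal cells exceeded BN for 32 of 44 members (51.1% of all genes, median 1.48) and ACI basal cells for 33 of 43 (50.9%, median 1.05), and 0 members were called by edgeR in either (0% of all genes), while DESeq2 called 3 higher and 1 lower in luminal cells (2.28% and 0.722% of all genes) and 0 in basal cells (0.00886% and 0.062%). The strains did not overlap for 4 members higher and 2 lower in luminal cells (7.44% and 7.57%) and for 3 higher and 0 lower in basal cells (3.11% and 5.4%). At an unadjusted p under 0.05 there were 2 higher and 1 lower in luminal cells (2.66% and 1.92% of all genes), and 0 in basal cells (0.142% higher and 0.647% lower). The medians ran from 0.87 to 3.10 in luminal and from -0.21 to 4.35 in basal cells when single libraries were left out, the extremes without E2 replicate 2 of ACI and without 1 of the BN libraries. Cks2, a CDK-binding protein, was the lower one, with 78.1, 91.4, 47.7 and 39.2 CPM in ACI against 324 and 298 in BN luminal cells (-2.40 ± 0.37, adjusted p = 0.886, edgeR). Nusap1 was higher, at 2.19, 8.92, 37.3 and 30.7 against 0 and 0.702. The 37.3 CPM came from E2 replicate 1 of ACI, whose fibroblast markers summed to 5318 CPM, and their part was not tested. The 2 BN libraries of each cell type had 7 and 21 (luminal) or 3 and 22 (basal) members at 0, and fibroblast markers reached 16410 CPM in the E2 basal library of BN, whose part in these values was not tested.

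Most members tracked one another across the 48 libraries, as a description of libraries that share experiment and depth. The Pearson correlation of a member's log2 CPM with the mean of the other members was highest for Ccnb2 (0.85), Cdk1 (0.83) and Cdca3 (0.83). It was lowest for Wee1 (-0.26), Lbr (-0.03) and Cks2 (0.12), followed by Aurka and Smc4 at 0.25. Within the 16 libraries of 9 weeks Cks2 and Aurka came to 0.70 and 0.79, whereas Wee1 stayed at -0.20 and Lbr at -0.06. The 5 genes outside the list whose levels were most like the members' mean over the 48 libraries were Rrm2 (0.88), Fam64a (0.87), Tk1 (0.81), Cenpw (0.81) and Smc2 (0.81). By symbol, Rrm2 is on the list of S phase genes and Smc2 on that of further G2 and M genes. Fam64a is an older symbol of Pimreg, which is also on the latter list.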

How the data were processed

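RNA-seq counts from 48 libraries were analysed. The deposited counts are whole reads per gene, which the authors made by aligning the reads (single-end, SMARTer low-input kit) to rn6 with STAR 2.5.1b and counting with HTSeq, without a strand-marking kit. Rows naming no gene held 47.1 to 77.0% of reads and were left out. Deposited ChIP-seq peak lists were not used.

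The 9-week, 4-week and 6-week libraries were each fitted together by age, the 4- and 6-week libraries jointly for age, and the E2 experiment by cell type, with edgeR 4.0.16 (quasi-likelihood test, filterByExpr with a minimum count of 10, TMM scaling, R 4.3.3). P-values were adjusted by Benjamini-Hochberg over all genes tested, with a threshold of 0.05. SE is the log2 fold change divided by the square root of F. DESeq2 1.42.0, other scalings, no filter, blocks and left-out libraries were alternatives. The edgeR test of the 9-week progenitor comparison was tried on simulated counts. Those libraries were independent, unlike the same-numbered libraries here, and the other comparisons were not simulated.

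Genes named are a set of well-known members and, in each comparison, up to 3 called genes per direction of lowest p or, where none was called, 2 of lowest p. Ect2, Kif2c, Psrc1, Ube2c, Kif23, Gtse1, Hmgb2, Cdkn3 and Pkmyt1 were named after their values were seen. Members and lists were chosen with earlier results of these data known. No test was run over a list.

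Deviations from group means correlated at 0.262 to 0.794 between same-numbered libraries of a genotype at 9 weeks (12 pairs), so the numbers pair populations, and at 0.11 to 0.268 between libraries of the same animal at 4 weeks (3 pairs). Same-numbered libraries of different genotypes did not correlate (-0.304 to 0.002, 4 pairs). None of 28 pairs of libraries of the same group agreed within sampling noise, and other pairs were not compared. Promoter sequences are RefSeq entries of GRCr8, a different build from that of the counts, matched by symbol.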

Additional observations from a re-analysis of the deposited data

Results flagged for a closer look

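In the E2 experiment 3 values stood apart from the other libraries of their strain and cell type, among 120 combinations of 6 groups of 4 libraries and 20 measures. Chance flags about 1 in 20 such groups, a larger share than the 3 of 120 found here. The ACI groups pool control and E2 libraries, so their libraries are not replicates of a single condition. Birc5 (survivin) held 6.11 CPM in control luminal library 2 of ACI and 0, 0.636 and 0.729 in the other ACI luminal libraries, so that the gap took up 0.881 of the whole range, above the critical value for 4 libraries. Tmpo held 133.5 CPM in E2 luminal library 2 of ACI against 44.2, 49.6 and 57.4, a ratio of 0.853. Birc5 held 4.16 CPM in E2 basal library 2 of ACI and 0 in the other 3 ACI basal libraries, a ratio of 1.0.

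Bub3 changed order between ages. Its log2 difference, Cdkn1b-/- against Cdkn1b+/+, was -0.535 in luminal and -1.377 in basal cells at 6 weeks, with every library labelled Cdkn1b-/- below every library labelled Cdkn1b+/+. The Cdkn1b level of 1 library on each side (Cdkn1b-/- luminal replicate 2 and Cdkn1b+/+ basal replicate 3) goes against its label, and the second of these held the highest Bub3 level of the basal comparison, 258 CPM. In progenitors, mature luminal and basal cells at 9 weeks and in luminal cells at 4 weeks every Cdkn1b-/- library lay above every Cdkn1b+/+ library. At 4 weeks the nearest libraries were almost level, at 37.322 CPM in Cdkn1b-/- and 37.289 CPM in Cdkn1b+/+ cells. The change of the luminal difference from 4 to 6 weeks was tested in the joint fit, where Bub3 did not pass by edgeR. The other differences between ages were not tested.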

How the results depend on the processing

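Under settings other than leaving out 1 library, all 90 medians of the members moved by less than the spread between libraries of a group. Some of these settings fitted only part of the libraries. Of 90 counts of called members, 69 stayed within 1.5 times, where 0 called under both settings also counted as unchanged. In the E2 experiment that spread pooled strains or treatments, so there it was not one of replicates alone. In progenitors of 9-week rats the 4 calls became 15 with DESeq2, 7 with the compared libraries alone, 7 with the replicate block, 24 with the numbers crossed between genotypes (added after seeing the data), and 0 with PNA+ and CD49b+ counts summed or with either alone. Between genotypes the numbers do not pair samples, so the block is only a number there. DESeq2 called 1 member in mature luminal cells (3 with crossed numbers), 10 in luminal and 2 in basal cells at 6 weeks, 1 in each comparison of progenitors with mature luminal cells, 11 in luminal and 6 in basal Cdkn1b+/+ cells between ages, 1 for E2 in luminal cells, 4 between strains in luminal cells and 6 for the change of genotype difference with age. The replicate block gave 5 for progenitors and 21 for basal cells against mature luminal cells of Cdkn1b+/+ rats, and no filter gave 1 in the 4-week comparison of basal with luminal cells.

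With single libraries left out, called members ranged from 1 to 5 in progenitors, 0 to 2 in luminal cells at 6 weeks, 0 to 23 in basal against mature luminal cells, 0 to 2 between cell types at 4 weeks, 0 to 3 and 2 to 7 in luminal and basal Cdkn1b+/+ cells between ages, and 0 to 10 for the genotype difference with age. Medians ranged from 0.33 to 1.23 in mature luminal cells, -0.60 to 1.35 in basal cells at 9 weeks, -0.59 to 2.37 in luminal and 0.54 to 2.18 in basal cells at 6 weeks, 0.10 to 1.04 for Cdkn1b-/- progenitors against mature luminal cells, and -0.11 to 1.96 for Cdkn1b+/+ basal against mature luminal cells. They ranged from 0.07 to 0.63 between cell types at 4 weeks, -1.80 to -1.03 and -1.61 to -0.12 in luminal and basal cells between ages, -5.07 to -0.39 for E2 in basal cells, 0.87 to 3.10 and -0.21 to 4.35 between strains in luminal and basal cells, -0.25 to 1.83 for progenitors minus basal cells, and -1.30 to 1.76 for the genotype difference with age. Tmpo in progenitors went to -0.034, -0.140, -0.061 and -0.057 without each library numbered 2, and up to 0.220 without PNA+ library 1 of Cdkn1b-/- rats. The causes were not tested. Most members held under 20 CPM, and the lowest gene counts were those of 6 weeks. The library with the most members at 0 was E2 basal replicate 1 of ACI, with 28. It held 22483740 gene counts, spread over 7716 genes with a count. The part of depth, or of the number of genes with a count, was not tested.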
